A study of Mus musculus with 10 samples.

Results

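Genes of prohormone processing and secretory granule cargo were followed in the islet transcriptome of mice lacking FIT2 in β cells. They were chosen by gene name and comprise the convertases Pcsk1 and Pcsk2, the convertase partners Pcsk1n and Scg5, the carboxypeptidase Cpe, the amidating enzyme Pam, the granins Chgb and Scg3, and the granule membrane proteins Ptprn and Ptprn2. Each name matched 1 row, so they make up 10 of the 47340 genes in the table. The RNA came from pancreatic islets of male mice, 12 wk old and on chow, cultured overnight after isolation, with 1 library per mouse. The 5 FL mice carried floxed FIT2 alleles (fl/fl) without Cre. The sample titles call them floxed, whereas their genotype field reads wild type. The 5 KO mice (βFIT2KO) carried the same floxed alleles and a Cre transgene driven by the rat insulin promoter. This promoter is meant to direct deletion to insulin-expressing cells. Which cells of the islet kept the gene cannot be read from these bulk libraries. No islets of mice with Cre alone are among these libraries, so Cre and the loss of FIT2 cannot be told apart.

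Peptide hormones are made as larger precursors that enter the regulated secretory pathway at the trans-Golgi network and are cut inside the maturing, acidifying granule. Convertases cut at pairs of basic residues, carboxypeptidase E trims the basic residues that remain, and the amidating enzyme modifies those peptides that end in glycine. Granins are acidic cargo proteins that aggregate with hormones as granules form. In β cells this route turns proinsulin into insulin and C-peptide, and in α cells it turns proglucagon into glucagon. Values are FPKM, read fragments scaled by transcript length and by the size of the library, which allow levels of different genes to be set side by side.

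Of the 10 members, 4 were lower in KO islets. Relative to the FL mean, Pcsk1n fell by 29.4%, Cpe fell by 27.6%, Scg5 fell by 25.9% and Ptprn2 fell by 18.8%. None of these reached a 1.5-fold change, and no member rose. Pcsk1, Pam, Scg3 and Ptprn did not pass the test, with Pcsk1 and Pam on average above FL and Scg3 and Ptprn below it. Chgb was listed at 0 in every KO library and Pcsk2 at 0 in every FL library, and neither is given a fold change. The test was limma on log2(FPKM + 1) over the 13065 genes whose mean reached 1 FPKM in a group, with a threshold of 0.05 on the adjusted p. All 10 members passed that filter, Chgb and Pcsk2 through 1 group alone. Of the 8 members with values in both groups, 4 were called lower, where 16.5% of all tested genes were. As higher, 0 were called, where 9.05% of all tested genes were, with 1 (Pcsk1) at an unadjusted p under 0.05 in limma. FL and KO values were separate in 3 of the 8 (Scg5, Cpe and Ptprn2) and in 19.1% of all tested genes. The median log2 fold change of the 8 was −0.22, beside −0.06 over all genes tested.

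**Figure D1:**
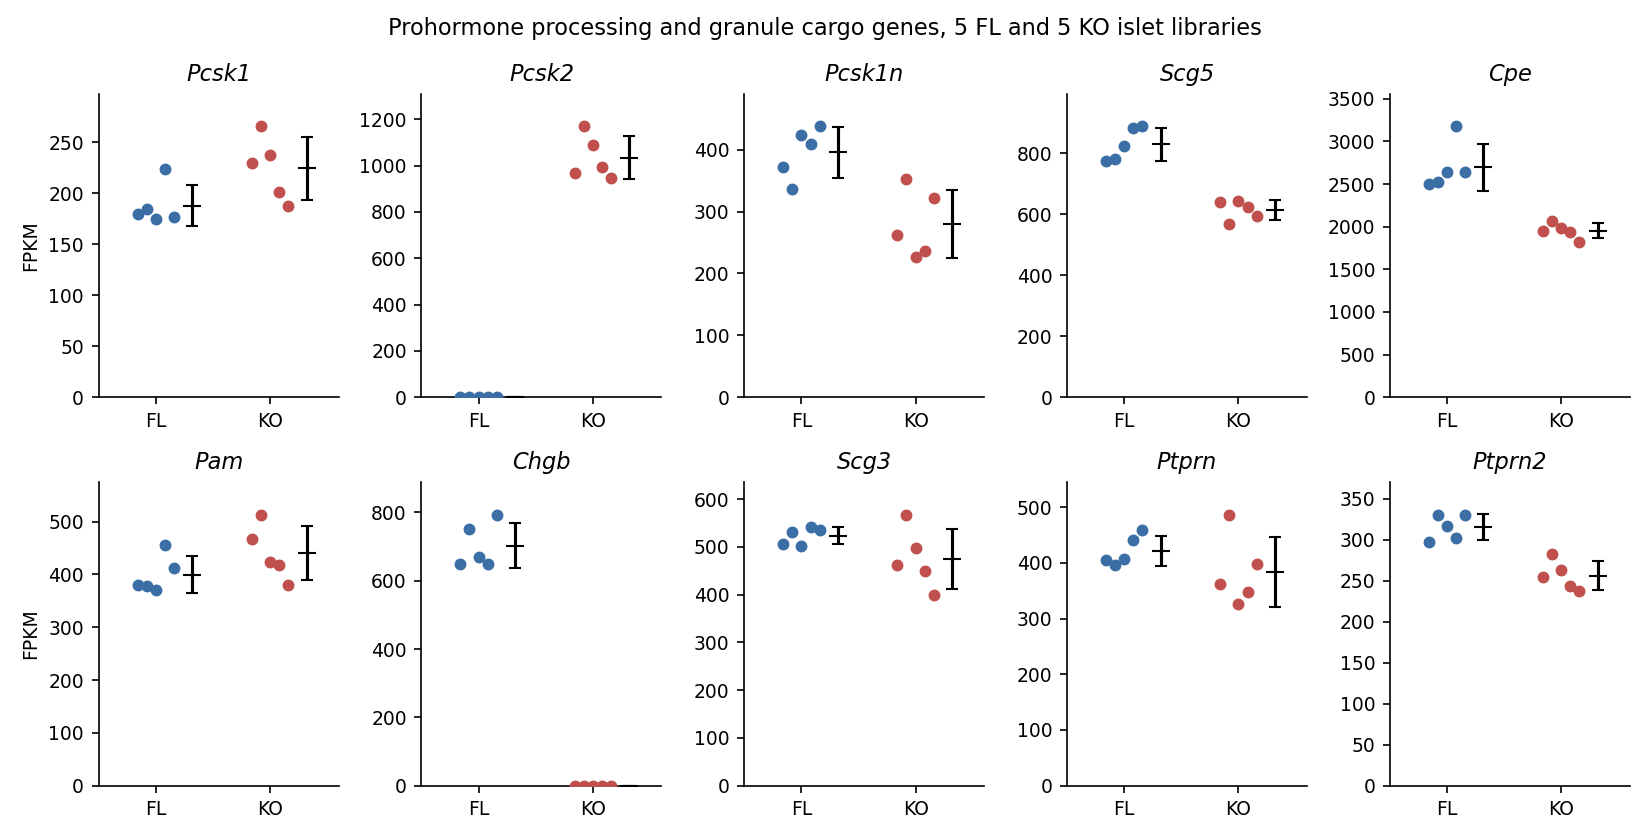
FPKM of the 10 genes in each of the 5 FL (blue) and 5 KO (red) libraries. Each point is 1 mouse, bars give the mean ± SD (n = 5), and every axis starts at 0. The FL and KO points of Scg5, Cpe and Ptprn2 do not overlap, Pcsk2 is at 0 in all FL libraries and Chgb at 0 in all KO libraries.

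Fitm2, the gene of FIT2, ranged from 15.5 to 37.1 FPKM in FL and from 4.30 to 9.13 FPKM in KO (log2 fold change −1.58, adjusted p = 0.00228 from limma). Summed FPKM ranged from 627084 to 675470 across the libraries. FPKM do not hold read numbers, but the spacing of low values put the depth of the other libraries at 1.41 to 2.39 times that of FL mouse 1. Of the genes called over the whole table, 64.5% were lower in KO, and 52.2% were when the libraries were rescaled by median ratio. No other source of the spread between libraries is given in the labels, and nothing says which mice shared a litter or a day.

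Cell type markers moved between the groups beside the members. Of 10 β cell markers, Ins1, Ins2 and Iapp were listed at 0 in all 10 libraries, 6 of the other 7 were lower in KO, and their summed level was 2273 to 2844 FPKM in FL and 1511 to 2124 FPKM in KO. The summed α cell markers, of which Gcg was listed at 0 in all libraries, were at 440 to 657 FPKM in FL and 294 to 435 FPKM in KO, with 2 of 6 tested lower. Summed δ cell markers overlapped between the groups (4960.3 to 5852 FPKM and 3993 to 5339 FPKM), with 1 of 4 tested lower (Sst). Stromal markers were higher in all 5 tested (summed level 12.1 to 20.6 FPKM in FL and 24.4 to 33.7 FPKM in KO), endothelial markers in 3 of 6 (133 to 153 and 161 to 206 FPKM) and leukocyte markers in 2 of 5 (118 to 164 and 169 to 193 FPKM). Summed duct markers were at 449 to 527 FPKM in FL and 363 to 420.1 FPKM in KO, with 1 of 4 tested lower and 1 higher. Most of that sum was Krt7, the marker called lower, which averaged 451 FPKM in FL and 356 FPKM in KO. Cftr, the marker called higher, averaged 0.0372 FPKM in FL and 2.13 FPKM in KO. The 8 acinar markers did not pass, and their sums overlapped (4370 to 11663 and 2882 to 21493 FPKM), as did those of Schwann cells and of Ppy. In bulk islets, fewer cells of a type and less RNA per cell cannot be told apart, and the part of these shifts in the members' values was not tested.

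The sequences before the transcription start are shown for 3 of the 4 members that fell and for Pcsk1. The mean of Pcsk1 was higher in KO, but it was not called. A link between these sequences and the levels was not tested. RefSeq promoter windows (GRCm38.p6, 250 bases before to 50 after the start) were found for 9 of the 10 members (all but Cpe), with a second window each for Ptprn and Pam. The stretches printed for these 4 genes end before the first annotated base of the gene. Capitals mark the cAMP response element TGACGTCA or its core TGACG, and the core TGCTGA of the Maf recognition element, searched on both strands. Pcsk1 lies at chr13:75089607-75089825 (plus strand), Scg5 at chr2:113829122-113829341 (minus strand), Pcsk1n at chrX:7919572-7919821 (plus strand) and Ptprn2 at chr12:116485470-116485719 (plus strand).
Pcsk1: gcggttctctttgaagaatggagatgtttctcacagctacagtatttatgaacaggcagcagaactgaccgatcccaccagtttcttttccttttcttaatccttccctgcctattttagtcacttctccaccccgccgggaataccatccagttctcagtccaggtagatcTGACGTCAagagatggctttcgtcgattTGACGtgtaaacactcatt
Scg5: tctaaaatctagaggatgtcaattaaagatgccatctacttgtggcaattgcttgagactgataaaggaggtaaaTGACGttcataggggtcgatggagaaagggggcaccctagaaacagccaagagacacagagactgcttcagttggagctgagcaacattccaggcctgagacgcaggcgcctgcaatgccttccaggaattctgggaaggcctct
Pcsk1n: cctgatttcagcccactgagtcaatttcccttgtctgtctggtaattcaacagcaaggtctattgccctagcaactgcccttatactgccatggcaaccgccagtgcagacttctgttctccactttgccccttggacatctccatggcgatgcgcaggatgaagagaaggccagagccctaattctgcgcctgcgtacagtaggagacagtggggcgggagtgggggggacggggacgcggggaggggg
Ptprn2: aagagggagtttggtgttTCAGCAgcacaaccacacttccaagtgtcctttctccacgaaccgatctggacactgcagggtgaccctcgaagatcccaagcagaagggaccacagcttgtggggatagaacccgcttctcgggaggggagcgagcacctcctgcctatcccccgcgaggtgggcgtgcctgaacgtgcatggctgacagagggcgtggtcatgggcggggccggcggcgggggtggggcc

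The whole element TGACGTCA was present in 2 of the 11 member windows, those of Pcsk1 and Chgb, and in 1.79% of the 32851 windows of the table. In Pcsk1 it began 78 bases before the start, and in Chgb 72 bases before it. The core TGACG, which the whole element contains on both strands, was in 6 of the 11 member windows and in 20.8% of all windows. These 6 belong to Pcsk1, Chgb, Pcsk2, Scg5, Scg3 and Ptprn, in the case of Ptprn the second window only. TGCTGA was found in 1 of the 11 member windows, that of Ptprn2, and in 19.5% of all windows. Of the 3 genes that fell and have a window, Scg5 held TGACG, Ptprn2 held TGCTGA, and the Pcsk1n window held neither. These are matches of letters in a window and no measure of binding.

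The convertases cut prohormones at basic residues, Pcsk1 mainly in β cells and Pcsk2 in both β and α cells. Pcsk1 (chr13:75089826-75134861, plus strand, GRCm38) was at 179, 185, 174, 224 and 177 FPKM in FL mice 1 to 5 and at 229, 266, 238, 201 and 188 FPKM in KO mice 1 to 5. There were 3 KO libraries above all FL libraries, and the other KO libraries lay above all FL libraries but FL mouse 4. The means were 188 ± 20.5 and 224 ± 30.7 FPKM (SD, n = 5). The log2 fold change was 0.25 ± 0.10 (SE), which did not pass in limma (adjusted p = 0.0910), nor did the difference in an exact two-sided permutation test (p = 0.0556, n = 5). Pcsk1 passed as higher without FL mouse 4 (adjusted p = 0.0364) and without KO mouse 5 (0.0409), and when the libraries were rescaled by median ratio (0.0284), upper quartile (0.0324) or quantiles (0.0296).

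Pcsk2 (chr2:143546156-143816285, plus strand) was listed at 0 in all 5 FL libraries and at 968, 1171, 1090.3, 995 and 948 FPKM in KO mice 1 to 5. The mean in KO was 1035 ± 93.9 FPKM (SD, n = 5), which put Pcsk2 after Cpe in the order of KO levels. Within KO libraries, the Pcsk2 level was 4.22 to 5.05 times that of Pcsk1. An exact 0 in an FPKM table can be a failed estimate rather than a missing transcript: the insulin genes, which islets express at very high levels, were at 0 in every library of both groups. The values of Pcsk2 are therefore given as listed, with no direction drawn from them.

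The pattern at the Pcsk2 locus included an antisense gene. Pcsk2os1 (chr2:143535476-143547837, minus strand), whose annotated span overlaps the 5′ end of Pcsk2, was also listed at 0 in all FL libraries and was at 21.2 to 26.8 FPKM in KO. Pcsk2os2 (chr2:143747583-143795965, minus strand), which lies inside Pcsk2, was at 0 in all 10 libraries. The nearest genes on either side were close to 0 in both groups, with Bfsp1 at 0.0998 and 0.112 FPKM and the pseudogene Gm11645 at 0.0136 and 0.0875 FPKM on average in FL and KO. The libraries were made with a stranded protocol, but whether strand was used in counting is not given in the sources used here.

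**Figure D2:**
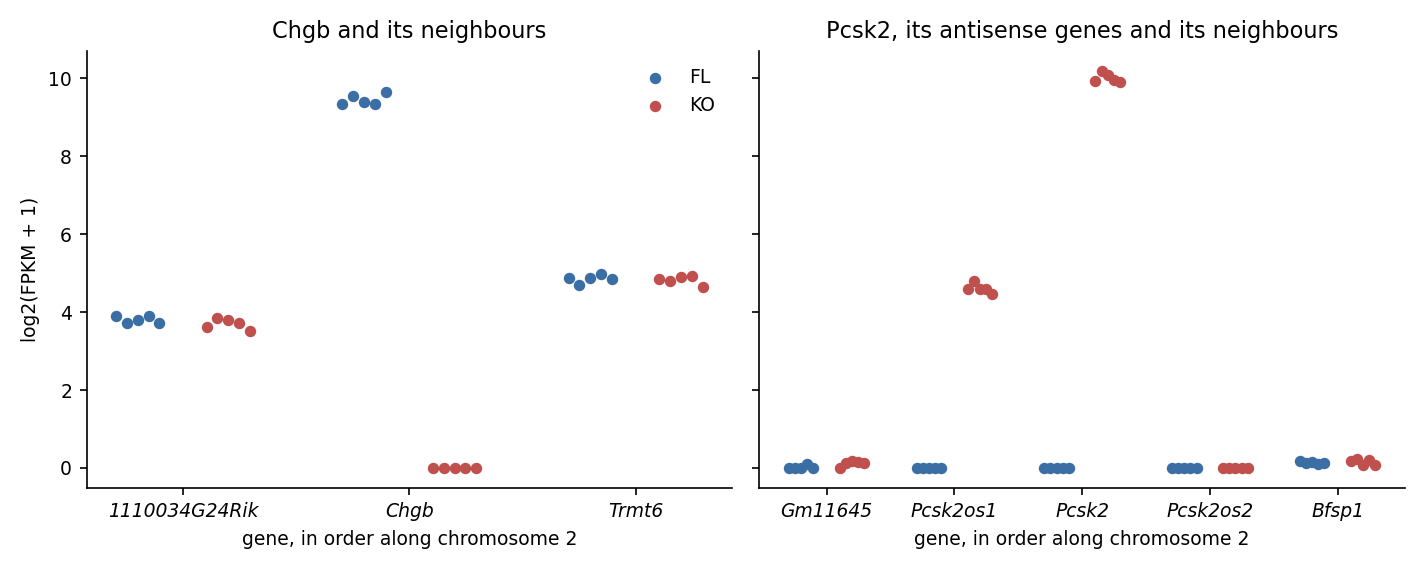
Levels, as log2(FPKM + 1), of Chgb and Pcsk2 and of the genes annotated to overlap or lie next to them, in the 5 FL (blue) and 5 KO (red) libraries. Chgb is at 0 in all KO libraries between neighbours with overlapping levels in both groups, whereas Pcsk2 and Pcsk2os1 are both at 0 in all FL libraries.

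Pcsk1n and Scg5 encode small granule proteins that act on the convertases. Pcsk1n encodes proSAAS, whose peptide inhibits the convertase of Pcsk1, and Scg5 encodes a chaperone that the convertase of Pcsk2 needs to mature. Pcsk1n (chrX:7919822-7924410, plus strand) was at 372, 337, 424, 408 and 438 FPKM in FL mice 1 to 5 and at 263, 352, 226, 236 and 322 FPKM in KO mice 1 to 5. There were 4 KO libraries below all FL libraries, and KO mouse 2 lay above FL mouse 2. It passed as lower in limma (log2 fold change −0.52 ± 0.13 SE, adjusted p = 0.0133), with p = 0.0159 in the exact permutation test (n = 5). Its relative spread within KO, a coefficient of variation of 19.7%, was higher than that of the other 8 members with KO values.

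Scg5 (chr2:113776362-113829121, minus strand) was at 777, 781, 824, 883 and 890.0 FPKM in FL mice 1 to 5. In KO mice 1 to 5 it was at 642, 569, 645, 626 and 596 FPKM, all below the lowest FL library. It passed as lower in limma (log2 fold change −0.43 ± 0.06 SE, adjusted p = 0.000392). The exact two-sided permutation test gave p = 0.00794 (n = 5), the smallest that 5 mice against 5 allow. In KO libraries the Pcsk2 level was 1.51 to 2.06 times that of Scg5, a ratio that has no FL value.

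Cpe and Pam act on the ends that the convertases leave. Cpe (chr8:64592542-64693054, minus strand) encodes the carboxypeptidase that removes basic residues, and was the highest member in every library. It was at 2504, 2522, 2639, 3181 and 2639 FPKM in FL mice 1 to 5 and at 1952, 2062, 1984, 1944 and 1817 FPKM in KO mice 1 to 5. FL mouse 4 stood above the rest of its group, and all KO libraries lay below all FL libraries. It passed as lower in limma (log2 fold change −0.46 ± 0.07 SE, adjusted p = 0.000862), with p = 0.00794 in the exact permutation test (n = 5). Without FL mouse 4 the log2 fold change was −0.40 (adjusted p = 0.000522 from limma). The call was lost when the libraries were brought to the same quantiles (log2 fold change −0.33, adjusted p = 0.181 from limma).

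Pam (chr1:97795114-98095646, minus strand) encodes the enzyme that amidates the C-terminus of peptides. It was at 380.1, 377, 371, 456 and 413 FPKM in FL mice 1 to 5 and at 467, 513, 424, 418 and 380.5 FPKM in KO mice 1 to 5. The groups overlapped, with 2 KO libraries above all FL libraries. The log2 fold change was 0.14 with a 95% interval from −0.05 to 0.33 and did not pass (adjusted p = 0.271 from limma, p = 0.143 in the exact permutation test, n = 5). Over the alternatives the adjusted p of Pam ranged from 0.0690 to 0.478.

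**Figure D3:**
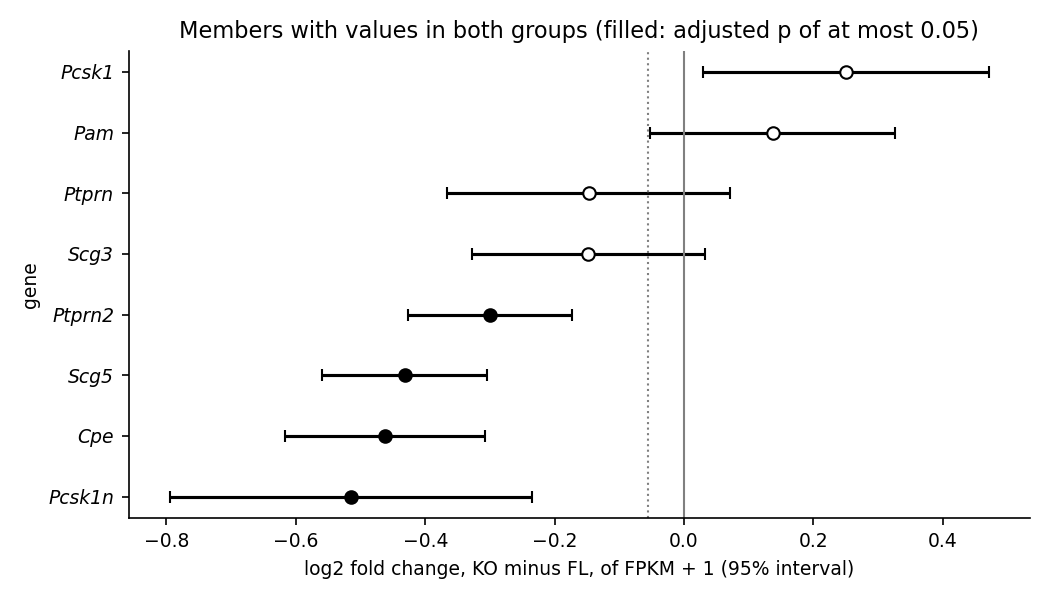
Log2 fold change (KO minus FL, on the log2(FPKM + 1) scale) of the 8 members with values in both groups, with 95% intervals from limma. Filled points passed an adjusted p of 0.05, and the dotted line is the median of all tested genes (−0.06). Pcsk1n, Cpe, Scg5 and Ptprn2 lie below 0 with intervals that exclude it.

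Chgb and Scg3 are granins, acidic proteins that aggregate in the trans-Golgi network and take part in granule formation. Chgb (chr2:132781278-132795079, plus strand) was at 648, 752, 669, 649.8 and 794 FPKM in FL mice 1 to 5, a mean of 702 ± 66.4 FPKM (SD, n = 5), and was listed at 0 in all 5 KO libraries. The 30 bases around its cAMP response element (chr2:132781559-132781588, plus strand, GRCm38.p6), shown because Pcsk1 holds the same element, lie before the RefSeq start but inside the GENCODE span of the gene given above.
Chgb: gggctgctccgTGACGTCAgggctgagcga
No other gene of the table is annotated to overlap Chgb. Its nearest neighbours were measured at overlapping levels in both groups. Trmt6, 9128 bases after Chgb, averaged 28.1 ± 2.06 FPKM in FL mice and 27.3 ± 2.11 FPKM in KO mice (SD, n = 5). The gene before it, listed as 1110034G24Rik, was at 13.0 ± 0.838 and 12.0 ± 1.22 FPKM (SD, n = 5).

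A value of 0 in all of 1 group and at least 1 FPKM in every library of the other was rare. It was found for 6 genes of the table: Chgb, listed at 0 in KO, and Pcsk2, Pcsk2os1, Atp2a2, Adtrp and Gm13715, listed at 0 in FL. Of these, Chgb, Pcsk2 and Atp2a2 reached 100 FPKM or more. Atp2a2, which encodes the calcium pump of the endoplasmic reticulum, was at 670 to 828 FPKM in KO; it was picked out after its values were seen. Chga and Scg2, the other abundant granins of the islet, were at 0 in all 10 libraries, as were Ins1, Ins2, Iapp and Gcg. Of the granins Chga, Chgb, Scg2 and Scg3, Scg3 alone had values in every library.

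Scg3 (chr9:75643189-75684056, minus strand) encodes the granin that binds chromogranin A and cholesterol-rich granule membrane. It was at 507, 531, 501, 542 and 535 FPKM in FL mice 1 to 5, the tightest group of any member, with a coefficient of variation of 3.41%. In KO mice 1 to 5 it was at 462, 568, 497, 451 and 399 FPKM, a coefficient of variation of 13.2%. There were 4 KO libraries below all FL libraries and KO mouse 2 above them all. The log2 fold change was −0.15 with a 95% interval from −0.33 to 0.03 (adjusted p = 0.214 from limma, p = 0.119 in the exact permutation test, n = 5). Without KO mouse 2 it passed as lower (log2 fold change −0.21, adjusted p = 0.0317 from limma).

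Ptprn and Ptprn2 encode catalytically inactive receptor-type tyrosine phosphatases of the granule membrane, known as autoantigens of type 1 diabetes. Ptprn (chr1:75247027-75264502, minus strand) was at 406, 396, 407, 441 and 459.6 FPKM in FL mice 1 to 5 and at 362, 487, 326, 347 and 399 FPKM in KO mice 1 to 5. There were 3 KO libraries below all FL libraries and KO mouse 2 above them all. The log2 fold change was −0.15 with a 95% interval from −0.37 to 0.07 (adjusted p = 0.307 from limma, p = 0.198 in the exact permutation test, n = 5). Without KO mouse 2 it passed as lower (log2 fold change −0.24, adjusted p = 0.0303 from limma), which with Scg3 brings the members called lower from 4 to 6.

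Ptprn2 (chr12:116485720-117276849, plus strand) was at 297, 331, 317, 302 and 330.3 FPKM in FL mice 1 to 5. In KO mice 1 to 5 it was at 254, 283, 263, 244 and 237 FPKM, all below the lowest FL library. It passed as lower in limma (log2 fold change −0.30 ± 0.06 SE, adjusted p = 0.00356), with p = 0.00794 in the exact permutation test (n = 5). The 95% intervals of Ptprn and Ptprn2 overlap, and a difference between these related genes was not tested.

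KO mouse 2 held the highest KO value for 8 of the 9 members with KO values, the exception being Scg5, for which it held the lowest. In FL, mouse 4 was highest for 4 of 9 members. The summed level of the 8 members with values in both groups was 5422 to 6437 FPKM in FL and 4337 to 5100.2 FPKM in KO, without overlap. That separation rested on Cpe: without it the sums were 2918 to 3255 FPKM in FL and 2521 to 3038 FPKM in KO, and KO mouse 2 lay above FL mice 1, 2 and 3. By mean level over the 10 libraries these 8 members ranked from 15 (Cpe) to 452 (Pcsk1) among the 13065 tested genes, within the top 3.46%. In FL the order of mean levels was Cpe, Scg5, Chgb, Scg3, Ptprn, Pam, Pcsk1n, Ptprn2 and Pcsk1. Ranges overlapped between Scg5 and Chgb, although Scg5 was higher within each of the 5 libraries. They also overlapped between Ptprn and Pam (in this order in 4 of 5 libraries) and between Pam and Pcsk1n (3 of 5). In KO the order was Cpe, Pcsk2, Scg5, Scg3, Pam, Ptprn, Pcsk1n, Ptprn2 and Pcsk1, and from Scg3 onward the ranges of each neighbouring pair overlapped. Within the KO libraries, Ptprn was above Pcsk1n and Ptprn2 above Pcsk1 in 5 of 5, Scg3 above Pam and Pam above Ptprn in 4 of 5, and Pcsk1n above Ptprn2 in 3 of 5.

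Ratios of members within a library are unaffected by a scaling factor per library, though not by quantile normalization, and are given as a description. Pcsk1n was at 1.83 to 2.48 times Pcsk1 in FL and at 0.950 to 1.71 times in KO, lower in every KO library than in any FL library. Cpe was at 13.7 to 15.1 times Pcsk1 in FL and 7.76 to 9.68 times in KO. Pam was at 0.141 to 0.156 times Cpe in FL and 0.209 to 0.249 times in KO. In these 3 ratios all FL libraries lay on 1 side of all KO libraries. For Cpe/Pcsk1 and Pam/Cpe this follows from the ranges of the single genes, as Cpe by itself was separate between the groups. How often ratios of other gene pairs separate was not examined. Scg5 was at 1.47 to 1.66 times Scg3 in FL and 1.00 to 1.49 times in KO, with only the highest KO library inside the FL range. Ptprn was at 1.20 to 1.46 times Ptprn2 in FL and 1.24 to 1.72 times in KO, with wide overlap.

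**Figure D4:**
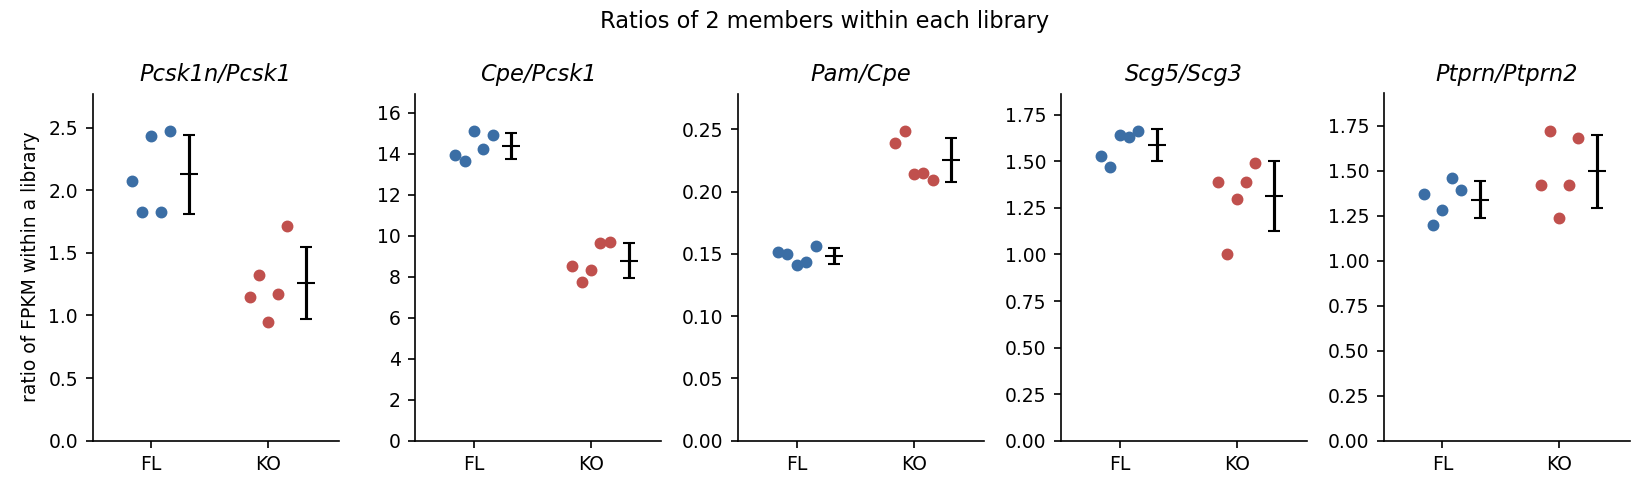
Ratio of the FPKM of 2 members within each library, for 5 FL (blue) and 5 KO (red) mice, with mean ± SD (n = 5) and axes from 0. FL and KO libraries do not overlap for Pcsk1n/Pcsk1, Cpe/Pcsk1 and Pam/Cpe, and overlap for Scg5/Scg3 and Ptprn/Ptprn2.

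Of 16 other convertases and processing enzymes, 14 were tested, 4 fell and 0 rose, and 10 did not pass, beside 16.5% lower and 9.05% higher among all tested genes. Higher genes numbered 0 at an unadjusted p under 0.05 as well, and 0 under every alternative tried. Pcsk6, a convertase of the constitutive pathway, fell from 37.4 to 26.4 FPKM (adjusted p = 0.000679 from limma). Cpm, a carboxypeptidase of the cell surface, fell from 8.55 to 4.78 FPKM. Qpct, which forms pyroglutamate at the N-terminus of peptides, fell from 5.41 to 3.41 FPKM. Furin, the convertase of the trans-Golgi network, averaged 37.0 FPKM in FL mice and 34.7 FPKM in KO mice and did not pass (adjusted p = 0.746 from limma). Cpz was listed at 0 in all FL libraries and averaged 0.00404 FPKM in KO. The median log2 fold change of the list was −0.08, beside −0.06 for all genes tested.

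Of 16 other granins and hormones, 6 were at 0 throughout and 8 were tested, of which 2 fell and 0 rose (1, Nmb, was higher at an unadjusted p under 0.05 in limma). The 2 of 8 that fell are close to the 16.5% of all tested genes. Ucn3, a peptide of mature β cells, fell from 315 to 209 FPKM (adjusted p = 0.00328 from limma), and it is also among the β cell markers. Sst, the hormone of δ cells, fell from 4976 to 4091 FPKM (adjusted p = 0.0303 from limma). Its call held in 11 of 23 alternatives (not counting the one that also requires a 1.5-fold change) and was lost without FL mouse 1, 3, 4 or 5 or without KO mouse 1, 2 or 4 (adjusted p from 0.0507 to 0.0763). It was also lost without a filter on low values (0.413) and under rescaling by median ratio (0.0911), upper quartile (0.0896), TPM (0.0674) and quantiles, where the log2 fold change went from −0.29 to −0.03 (0.874). The granin Vgf averaged 81.1 FPKM in FL mice and 81.4 FPKM in KO mice and did not pass (limma adjusted p = 0.923). The list's median log2 fold change was −0.11.

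Of 23 genes of granule formation, sorting and acidification, 21 were tested, 5 fell and 3 rose, where 16.5% and 9.05% of all tested genes did. This balance depended on the scaling: 3 were lower and 6 higher under median ratio, where 1685 of the 13065 tested genes were lower and 1544 higher. Counts were likewise 3 and 6 under quantiles (1708 and 1494 of all tested genes) and 3 and 5 under upper quartile (1646 and 1534). The genes that gained a call under median ratio were Atp6v1a and Atp6v1b2, subunits of the proton pump, and Vps51, a subunit of tethering complexes. Slc30a8, the zinc transporter of insulin granules and also a β cell marker here, fell from 303 to 179 FPKM (adjusted p = 4.07e-05 from limma). Tmem163, a zinc transporter of vesicles, fell from 76.8 to 43.1 FPKM, and Cadps, which primes dense-core vesicles for release, fell from 43.9 to 31.7 FPKM. Hid1, which acts at the trans-Golgi network, fell from 72.3 to 64.8 FPKM. Atp6ap2, an accessory subunit of the proton pump, fell from 228 to 190.4 FPKM. Ccdc186, which acts in dense-core vesicle maturation, rose from 19.2 to 23.9 FPKM. Ica1 and Arfip2, membrane-curving proteins of the Golgi and immature granules, rose from 87.4 to 101 FPKM and from 64.3 to 76.4 FPKM. The median log2 fold change was −0.01.

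Several of these calls were close to the threshold. Atp6ap2 held its call in 6 of 23 alternatives (adjusted p up to 0.151) and lost it without each of the 5 FL mice and without KO mouse 1, 2, 4 or 5 (adjusted p from 0.0520 to 0.0966). Ica1 lost its call without FL mouse 1, 2, 3 or 4 or KO mouse 1, 2, 3 or 4 (0.0594 to 0.0944), and Arfip2 without FL mouse 1, 3, 4 or 5 or KO mouse 2, 3 or 5 (0.0522 to 0.0707). Hid1 held its call in 17 of 23 alternatives, and lost it without KO mouse 1 (0.0537) and under each of the 4 other scalings tried (0.0560 to 0.106). Ica1 held its call in 13 of the 23, Arfip2 in 14 and Ccdc186 in 22 (adjusted p up to 0.108, 0.0799 and 0.0578). Slc30a8, Tmem163 and Cadps kept theirs in these 23, and of the 5 genes that fell 2 (Slc30a8 and Tmem163) also reached a 1.5-fold change.

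Of 10 regulators of granule genes, 9 were tested, 6 fell (16.5% of all tested genes did) and 0 rose, and 0 were higher at an unadjusted p under 0.05 in limma. Foxa2, Insm1, Pax6 and Myt1, transcription factors of islet cells, fell from 54.0 to 37.0, from 133 to 92.2, from 198 to 150.4 and from 27.9 to 20.7 FPKM. Creb1, which binds the cAMP response element, fell from 19.8 to 16.7 FPKM (adjusted p = 0.00278 from limma). Ptbp3, an RNA-binding protein of the polypyrimidine tract-binding family, fell from 98.6 to 75.5 FPKM, whereas Ptbp1, which is known to stabilise granule mRNAs in β cells, was at 275 and 282 FPKM and did not pass (adjusted p = 0.669 from limma). All 6 calls held in these 23 alternatives, but 0 of the 6 reached a 1.5-fold change, and the list's median log2 fold change was −0.38.

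**Figure D5:**
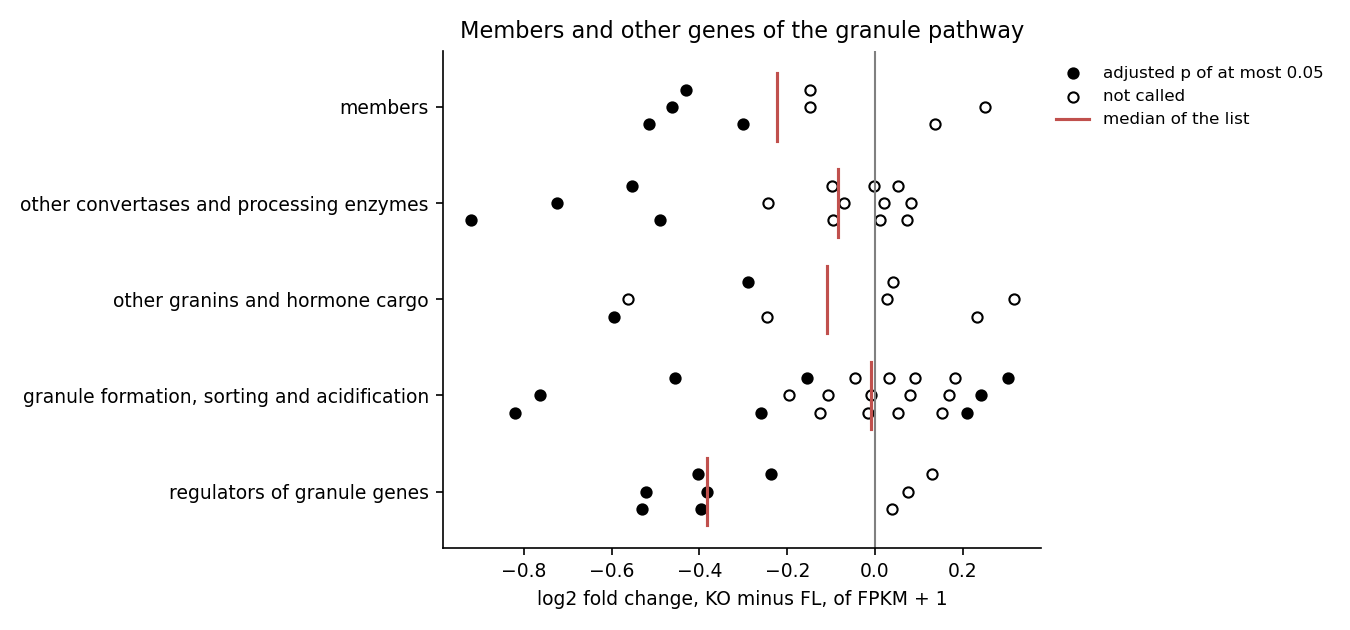
Log2 fold change (KO minus FL, on the log2(FPKM + 1) scale) of the 8 members with values in both groups and of the tested genes of 4 further lists. Each point is 1 gene, filled where the adjusted p was at most 0.05, and red bars are list medians. The regulators have the lowest median (−0.38) and granule formation genes lie on both sides of 0.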

How the data were processed

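Polyadenylated RNA of islets from 5 FL and 5 KO mice was sequenced in stranded libraries. The authors deposited 1 table of FPKM for 47340 genes. Per the submitters' processing notes, STAR 2.5.2a and Cuffnorm 2.2.1 were used with mm10; counting settings are not given in the sources used here. FPKM hold no read counts, so no counting error was computed, and no count model was used. Members, gene lists and tests were chosen with earlier results of these data known.

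The comparison used R 4.3.3 and its package limma 3.58.1 (lmFit, eBayes with trend, no covariate) on log2(FPKM + 1), keeping genes whose FL or KO mean reached 1 FPKM, with Benjamini-Hochberg adjustment over all 13065 genes. Fold changes are on that scale. Single members were also compared by exact permutation. P-values refer to the difference between FL and KO, judged against the spread between these mice. The fit, the adjustment and the shares over all genes include 132 genes listed at 0 in every library of 1 group; no fold change or p is given for such a gene. The procedure was also run on simulated data, but no outcome of that run is reported here. Coordinates are from GENCODE M21 (GRCm38); 3 of the 10 members carry another version of the same identifier there. Promoters are from RefSeq (GRCm38.p6).

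Named were all members, genes of the other lists that passed or were at 0 in a whole group, and genes overlapping or next to Chgb and Pcsk2; Furin, Vgf, Ptbp1 and Atp2a2 were added after their values were seen. List counts and medians include 1 gene whose own values are not reported here. Marker lists are given by their summed ranges, and Krt7 and Cftr were added after their values were seen. Alternatives covered the pseudocount, filter, scaling, limma options, replicate block, a 1.5-fold minimum, leaving out each mouse and, added after seeing the data, leaving out genes at 0 in a group. Tables used pandas 2.3.3 and numpy 2.4.6 in Python 3.11.15, and plots matplotlib 3.10.9.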

Additional observations from a re-analysis of the deposited data

Results flagged for a closer look

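One mouse stood far from the rest of its group in 2 of the 18 groups of 5 values examined over the members, where chance gives about 1 in 20. Both concern FL mouse 4: Pcsk1 was at 224 FPKM there, and at 174 to 185 FPKM in the other FL mice, and Cpe was at 3181 FPKM there, and at 2504 to 2639 FPKM in the others. FL mouse 4 was also the highest FL library for Pam and Scg3. Without it, Pcsk1 passed as higher in KO (log2 fold change 0.32, adjusted p = 0.0364 from limma) and Cpe remained lower (−0.40, adjusted p = 0.000522 from limma).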

How the results depend on the processing

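No member changed direction under any alternative. Pcsk1n, Scg5 and Ptprn2 were called lower in all 23 alternatives that give a fold change and Cpe in 22, with adjusted p from limma of 0.00177 to 0.0427, 0.000198 to 0.00517, 0.000507 to 0.0150 and 0.000183 to 0.181. Pcsk1 passed as higher in 6 of 23 (adjusted p 0.0212 to 0.177), so that members called higher went from 0 to 1 under median ratio, upper quartile, quantiles and sample weights. With at least 1.5-fold required, 639 genes were called in place of 3333; members called lower fell to 0, convertases lower to 2, granins and cargo lower to 1, granule formation to 2 lower and 0 higher, and regulators lower to 0. Granins and cargo lower went from 2 to 1 without a filter and under median ratio, upper quartile, quantiles and TPM, and granins and cargo higher from 0 to 1 (Nmb) with sample weights. Granule formation lower went from 5 to 3 under median ratio, upper quartile, quantiles, TPM and the replicate block. Granule formation higher went from 3 to 1 without a filter and under the block, to 6 under median ratio and quantiles and to 5 under upper quartile. Leaving out each mouse gave 2545 to 3427 genes called, 4 to 6 members lower and 0 to 1 higher, 4 to 5 convertases lower and 0 higher, 1 to 2 granins and cargo lower and 0 to 1 higher, 3 to 5 granule formation genes lower and 1 to 4 higher, and 6 regulators lower and 0 higher. Replicate numbers appear in the titles of both groups, but same-numbered mice did not deviate together (correlations −0.10 to 0.003, 0 of 5 over 0.1) and no number matched its own partner best (0 of 5); with the number as a block 2368 genes were called and the member calls were as without it, while Hid1 (adjusted p = 0.0709 from limma), Ccdc186 (0.0578), Ica1 (0.108) and Atp6ap2 (0.0628) lost theirs. Without genes at 0 in a group, an alternative chosen after seeing the data, member calls were the same. The cause of these shifts was not tested. Low FPKM carry few reads, which limits Cpz, Gm11645 and Bfsp1.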

Other observations

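Resp18, which lies beside Ptprn and encodes a soluble granule protein related to it, was looked at after its values were seen. Its mean was 2101 FPKM over FL mice and 1928 FPKM over KO mice, above every member but Cpe, and did not pass (log2 fold change −0.12, adjusted p = 0.391 from limma).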
